A study of Homo sapiens with 4 samples.

Results

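The E2F transcription factor genes E2F1 to E2F8 and the pocket protein genes RB1 and RBL1 were followed in HCT116, an established cell line from a human colorectal carcinoma, with and without added FOXD2. These 10 genes were listed by symbol and not by a cut on any measured value, though earlier results of these data were known. All 10 were found among the 60683 gene identifiers of the tables, and all 10 passed the filter on low counts together with 14470 genes in all. Messenger RNA was sequenced in 2 libraries of cells stably transduced with an empty pSin lentiviral vector and in 2 libraries of cells transduced with the same vector carrying the full FOXD2 coding region. FOXD2 is a transcription factor of the forkhead family. Both kinds of cells were kept under puromycin at 5 µg/ml, so the vector, the drug resistance and the selection were common to both groups. The labels name neither single clones nor the promoter that drove FOXD2, nor do they state if the replicates are independent cultures. The p-values therefore measure the spread between these libraries, which may be technical.

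E2F proteins bind the promoters of genes needed for DNA replication and cell division, most of them as dimers with a DP partner. E2F1, E2F2 and E2F3 are known as activators, E2F4 and E2F5 as repressors that act with pocket proteins, and E2F6, E2F7 and E2F8 as repressors that work without them. The pocket proteins RB (from RB1) and p107 (from RBL1) hold E2F factors inactive until cyclin-dependent kinases phosphorylate them, which opens the way from G1 into S phase. The protein p107 and its relative p130 also join E2F4 or E2F5 and the MuvB core in DREAM, a complex that silences cell cycle genes in resting cells.

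Libraries held 14231338 to 15535817 counts. The added gene FOXD2 had 49 and 42 counts without and 8195 and 7011 counts with the transgene, a log2 fold change of 7.32 (edgeR adjusted p = 6.5e-50), which matches the labels. RNAs encoded by mitochondria, ribosomal RNA included, made up 8.81% and 9.0% of counts in empty vector libraries and 10.6% and 10.9% in FOXD2 libraries. The RNAs RN7SL1, RN7SL2, RN7SK, RMRP and RPPH1, which lack a polyA tail, summed to 28.5 to 29.7 CPM (counts scaled to library size) in empty vector libraries. They summed to 56.8 CPM in FOXD2 replicate 2 and 129.3 CPM in FOXD2 replicate 1, so this last library stood apart in these RNAs. The epithelial genes EPCAM, KRT8, KRT18 and CDH1 were abundant (80.1 CPM or more in every library), and all 4 rose with FOXD2. The intestinal factor CDX2 fell, from 16.2 and 18.9 to 11.4 and 13.4 CPM (log2 fold change -0.51, edgeR adjusted p = 0.0010). The epithelial list, most of it KRT8 and KRT18, summed to 3531 and 3656 CPM without and to 6430 and 6114 CPM with FOXD2. The intestinal markers CDX1, LGALS4 and VIL1 had at most 6 counts in any library. Of 18 markers of fibroblasts, blood and endothelium, COL1A1 rose (9.44 and 10.6 CPM against 31.4 and 32.8 CPM). HBA2 rose too, from no count in empty vector libraries to 1.16 and 1.57 CPM with FOXD2. HBA2 passed the filter on low counts only through the FOXD2 libraries, so its direction is not independent of the filter. VWF was tested and did not pass, and the other 15 had at most 7 counts in a library, with COL1A2, PTPRC and CDH5 at 0 in all. The fibroblast list summed to 9.51 and 11.2 CPM and to 32.2 and 33.4 CPM, the blood list to 0.143 and 0.331 and to 1.41 and 1.71 CPM, and the endothelial list to 0.729 to 1.67 CPM. Their part in the results below was not tested.

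Of the 10 members, 4 were lower in FOXD2 cells and 0 were higher (edgeR quasi-likelihood test, adjusted p under 0.05). The members that fell were E2F1, E2F2, E2F4 and RBL1. Among all 14470 genes tested, 53.5% passed, 27.2% as higher and 26.4% as lower, so the share of members called (40%) was not above that of genes in general. At an unadjusted p under 0.05 the counts were 1 higher (E2F3) and 4 lower. DESeq2 called 0 higher and 3 lower, and limma-voom 0 higher and 4 lower. The median log2 fold change was -0.08 over the members and 0.01 over all genes tested. In bulk RNA, fewer cells that transcribe a gene and less RNA per cell cannot be told apart.

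Among the activators, E2F1 was at 43.7 and 46.1 CPM without and at 31.3 and 30.2 CPM with FOXD2. Both FOXD2 libraries lay below both empty vector libraries. E2F1, the activator best known for starting S phase and, when in excess, apoptosis, fell by 31.5% (log2 fold change -0.55, 95% interval -0.72 to -0.37, edgeR adjusted p = 8.1e-07). The authors also give a posterior mean of each gene's level in TPM (scaled by transcript length and by library), with an interval around that mean. The mean is not the TPM value given further below, which for E2F1 lies above the interval in every library. For E2F1 the intervals ran from 18.5 to 21.7 and from 19.2 to 22.3 TPM in empty vector libraries. In FOXD2 libraries they ran from 13.1 to 15.7 and from 12.7 to 15.3 TPM, with no overlap between groups.

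E2F2, an activator with a similar domain layout, was at 44.4 and 49.2 CPM without and at 32.0 and 32.9 CPM with FOXD2. The groups did not overlap, and the gene fell by 30.7% (log2 fold change -0.53, 95% interval -0.71 to -0.35, edgeR adjusted p = 1.3e-06). E2F3, the third activator, went the other way. It was at 64.8 and 61.4 CPM without and at 70.2 and 70.9 CPM with FOXD2, so both FOXD2 libraries lay above both empty vector libraries. Its log2 fold change of 0.16 (95% interval 0.01 to 0.31) did not pass after adjustment over all genes (edgeR adjusted p = 0.071). It passed as higher when libraries were scaled by total count (adjusted p = 0.012) or by the upper quartile (0.024), and the range over all 17 alternatives was 0.012 to 0.93. The interval of E2F3 lay wholly above those of E2F1 and E2F2, although the difference between these genes was not itself tested.

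E2F4, the main repressor E2F of DREAM, had the highest level of the 10 genes. It was at 143.5 and 148.2 CPM without and at 115.1 and 108.4 CPM with FOXD2, and the groups did not overlap. E2F4 fell by 23.4% (log2 fold change -0.38, 95% interval -0.52 to -0.25, edgeR adjusted p = 1.9e-06). On log2(TPM + 0.1) the fall was smaller, at -0.27 (limma adjusted p = 0.021). E2F5, its closest relative, was at 12.1 and 13.9 CPM without and at 13.7 and 11.001 CPM with FOXD2, and these overlapped. Its log2 fold change was -0.07 with the widest interval of the members, -0.36 to 0.21 (edgeR adjusted p = 0.69), since the gene had only 161 to 213 counts per library.

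Among the pocket proteins, RB1, the retinoblastoma tumour suppressor, was at 84.7 and 81.3 CPM without and at 81.1 and 81.5 CPM with FOXD2. These values overlapped, and the log2 fold change was -0.03 (95% interval -0.17 to 0.12, edgeR adjusted p = 0.76). RBL1, which encodes p107, was at 42.8 and 39.2 CPM without and at 32.4 and 36.4 CPM with FOXD2. The groups did not overlap, and RBL1 fell by 16.2% (log2 fold change -0.25, 95% interval -0.44 to -0.07, edgeR adjusted p = 0.016). This call was lost in 7 of 17 alternatives. It was lost with DESeq2 (adjusted p = 0.10), without empty vector replicate 1 (-0.19, adjusted p = 0.21) and without FOXD2 replicate 1 (-0.18, adjusted p = 0.14), within a range of adjusted p from 0.0037 to 0.50. The authors' intervals for RBL1 overlapped between groups, at 8.79 to 11.6 and 7.91 to 10.5 TPM without and 6.51 to 8.69 and 7.42 to 10.2 TPM with FOXD2. RBL2, the gene of the third pocket protein p130, which predominates in resting cells, was not among the 10 but moved the opposite way. It was at 35.05 and 31.9 CPM without and at 41.1 and 49.3 CPM with FOXD2, and it rose (log2 fold change 0.43, SE 0.09, edgeR adjusted p = 1.0e-04).

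None of the pocket-independent repressors passed. E2F6, which works in a Polycomb complex, was at 36.3 and 40.3 CPM without and at 38.6 and 40.9 CPM with FOXD2 (log2 fold change 0.05, 95% interval -0.13 to 0.23, edgeR adjusted p = 0.65). E2F7 and E2F8 are atypical members that bind DNA without a DP partner and whose genes are known targets of the activators. E2F7 was at 43.6 and 46.4 CPM without and at 39.3 and 46.3 CPM with FOXD2 (log2 fold change -0.08, interval -0.25 to 0.10, edgeR adjusted p = 0.48). E2F8 was at 36.8 and 40.1 CPM without and at 39.3 and 40.1 CPM with FOXD2 (log2 fold change 0.04, interval -0.13 to 0.22, edgeR adjusted p = 0.70). In all of them the libraries of the groups overlapped. The intervals of E2F7 and E2F8 do not reach the falls fitted for E2F1 and E2F2, although the difference between genes was not tested.

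**Figure D1:**
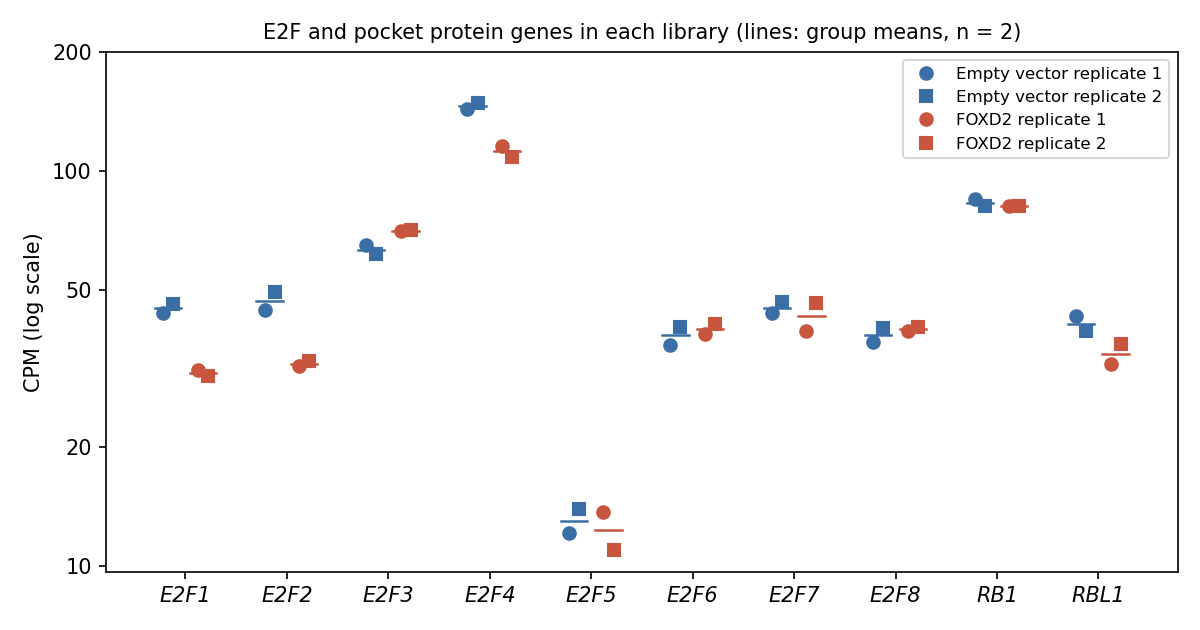
Level of each member in CPM (log axis) in each of the 4 libraries; circles and squares are replicates 1 and 2, and lines are group means. E2F1, E2F2, E2F4 and RBL1 lie lower in both FOXD2 libraries, E2F3 lies higher in both, and the other members overlap.

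**Figure D2:**
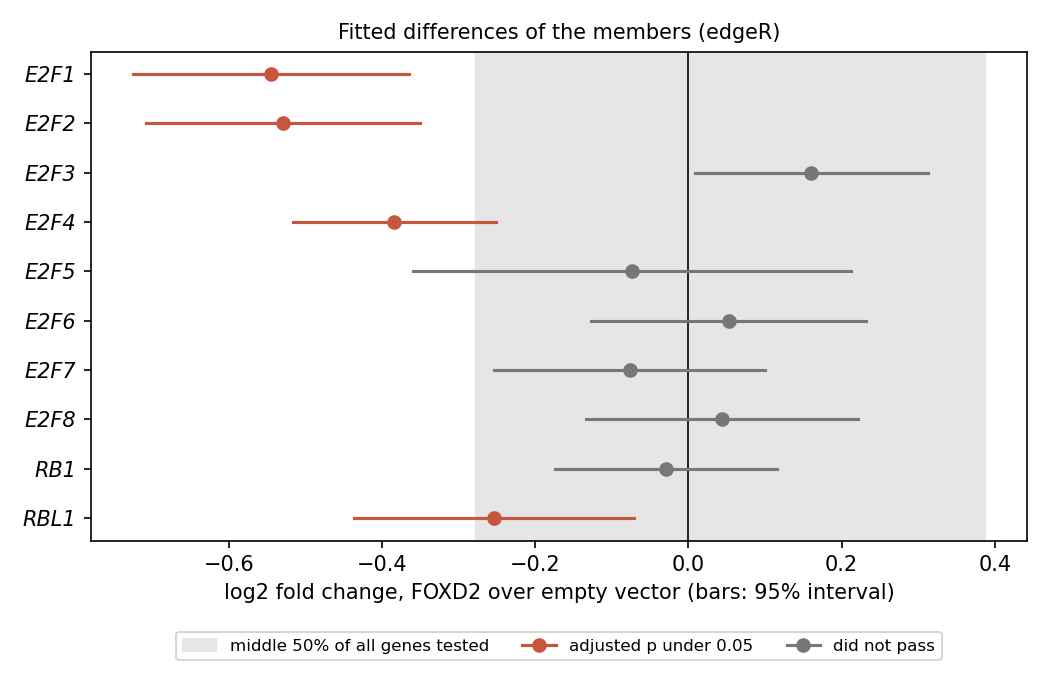
Fitted log2 fold change of each member, FOXD2 over empty vector, with its 95% interval from edgeR; the grey band holds the middle 50% of all genes tested. E2F1 at -0.55, E2F2 at -0.53 and E2F4 at -0.38 lie outside the band and RBL1 at -0.25 inside it.

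Across all genes tested, CPM values of the groups did not overlap for 76.1%, against 5 of the 10 members. The reads of 9 of the 10 members were assigned without doubt between genes, since the authors' posterior SD of the count was 0 in every library. The exception was E2F6, with a posterior SD of 1.38 to 2.0 reads on 507 to 608 counts. Its pseudogene E2F6P1 was given 1.53 reads in 1 library, and the other 6 pseudogene copies of E2F3, E2F4 and E2F6 were at 0.

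Compared per length, E2F4 stood far above the rest. In empty vector cells it was at 101.76 and 102.68 TPM, followed by RB1 at 22.26 to 24.89 TPM and E2F1 at 22.51 to 23.1 TPM, whose ranges overlapped. E2F6 (20.83 to 20.92 TPM), E2F3 (17.1 to 18.51 TPM) and E2F8 (14.18 to 15.5 TPM) came next. The library values of each were separated from those of its neighbours in the order. The authors' intervals of neighbours overlapped at each of these steps in 1 or both libraries, so they do not resolve this order. In empty vector replicate 1, for example, the interval was 16.3 to 21.7 TPM for E2F6 and 15.4 to 17.6 TPM for E2F3. E2F2, E2F7, E2F5 and RBL1 lay between 9.43 and 13.5 TPM, and neighbours in that part of the order overlapped. In FOXD2 cells E2F4 was at 82.55 and 87.37 TPM. E2F1, the third in order without FOXD2, was now the fifth at 15.9 to 16.15 TPM, below E2F6 (22.35 to 22.82 TPM) and E2F3 (20.16 to 21.13 TPM) and not separated from E2F8 (15.28 to 16.18 TPM).

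The makeup of the family is given as shares of the summed E2F TPM. It restates the levels above, since falls in E2F1, E2F2 and E2F4 raise the shares of other members by construction. E2F6, which did not pass, thus went from 9.86% and 9.75% to 11.7% and 12.1% with FOXD2. E2F8, which did not pass either, went from 6.71% and 7.22% to 8.03% and 8.56%. The summed E2F level was 211.3 and 214.6 TPM in empty vector libraries and 190.3 and 189.1 TPM in FOXD2 libraries. E2F1 made up 10.7% and 10.8% of that sum without and 8.49% and 8.41% with FOXD2. E2F3 made up 8.76% and 7.97% without and 10.6% and 11.2% with FOXD2. By TPM it thus took the place of E2F1 as the most abundant activator, although E2F3 itself was not called. By CPM, which is not scaled by length, E2F3 was the highest activator already without FOXD2. Its mean there was 63.1 CPM, against 44.9 for E2F1 and 46.8 for E2F2. The share of E2F4 was 48.6% and 47.4% without and 45.9% and 43.7% with FOXD2. The activators E2F1 to E2F3 summed to 52.4 and 53.7 TPM without and to 44.8 and 46.0 TPM with FOXD2. The repressors E2F4 and E2F5 summed to 112.4 and 113.9 TPM without and to 98.4 and 92.6 TPM with FOXD2. The repressors E2F6 to E2F8 summed to 46.5 and 47.0 TPM without and to 47.1 and 50.4 TPM with FOXD2. The 3 pocket protein genes RB1, RBL1 and RBL2 summed to 45.8 and 41.8 TPM without and to 44.1 and 47.8 TPM with FOXD2, which overlapped.

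**Figure D3:**
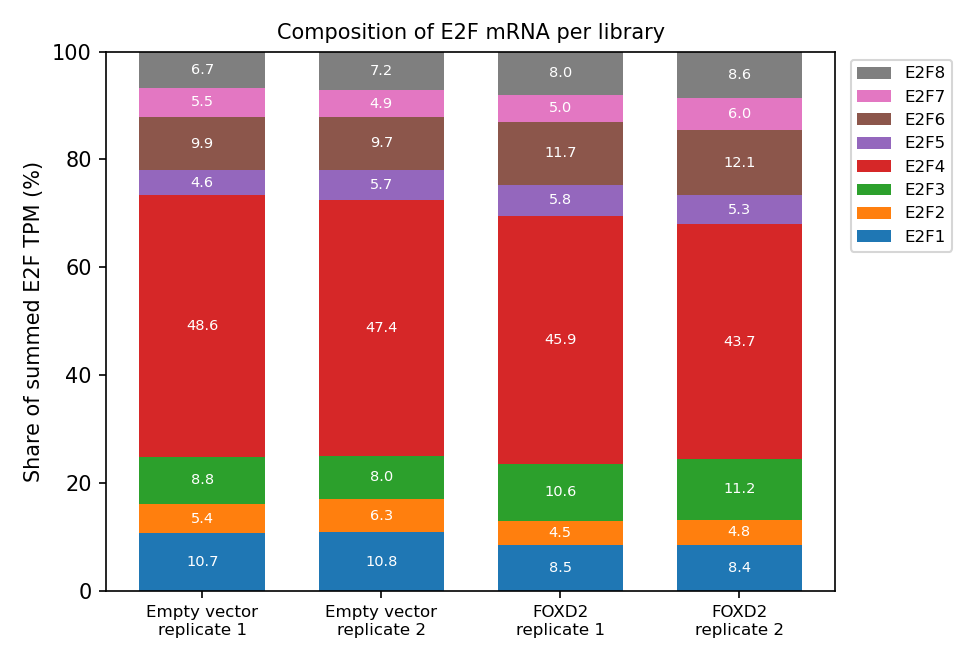
Share of each E2F gene in the summed E2F TPM of each library, in percent. E2F4 is the largest part in all 4 libraries. The E2F1 part shrinks from 10.7% and 10.8% to 8.49% and 8.41%. The E2F3 part grows to 10.6% and 11.2%, and the E2F6 and E2F8 parts grow as well.

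The tables give each gene a transcript length weighted by the estimated mix of its isoforms, so a shift in that mix moves the length. Lengths of the groups did not overlap for 3 of the 10 members, against 34.4% of all genes tested. E2F4 was at 1995 and 2020 bases without and at 1893 and 1923 bases with FOXD2. RBL1 was at 5384 and 5375 bases without and at 5686 bases in both FOXD2 libraries. E2F3, whose gene has separate start sites for its long and short proteins, was at 4682 and 4670 bases without and at 4656 and 4593 bases with FOXD2, a difference close to the spread between replicates. E2F1 has 1 transcript in the tables and kept 2690 bases.

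Promoter windows from RefSeq (GRCh38.p14, from 250 bases before to 50 after the start) were found for 8 of the 10 members, all but E2F5 and E2F8. They were searched on both strands for the E2F motif (TTTCCCGC, TTTGGCGC, TTTCGCGC or TTTGCCGC), for the CHR motif TTTGAA, which MuvB binds in late cell cycle genes, and for the forkhead motif TGTTTAC. An E2F motif was present in 4 of 8 members, E2F1, E2F2, E2F3 and RBL1, and in 3.99% of the 27305 genes of the table. The CHR motif was found in E2F3 alone and in 18.2% of all genes. The forkhead motif was found in 0 of 8 and in 4.19% of all genes. Such matches describe letters and not binding, and the window of RB1 lies inside the annotated gene, so it is not the promoter of the full-length transcript.

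The last 100 bases before the start are shown for the 4 members that fell and for E2F3, so that members with and without the motif can be compared. E2F motifs are in capitals. The stretches are chr20:33686386-33686485 (E2F1, minus strand), chr1:23531234-23531333 (E2F2, minus), chr20:37095998-37096097 (RBL1, minus), chr16:67192055-67192154 (E2F4, plus) and chr6:20401779-20401878 (E2F3, plus).
E2F1: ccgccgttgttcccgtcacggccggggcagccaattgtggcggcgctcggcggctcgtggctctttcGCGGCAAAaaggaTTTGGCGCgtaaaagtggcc
E2F2: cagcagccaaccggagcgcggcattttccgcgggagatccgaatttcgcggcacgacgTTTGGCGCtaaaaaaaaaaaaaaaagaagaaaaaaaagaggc
RBL1: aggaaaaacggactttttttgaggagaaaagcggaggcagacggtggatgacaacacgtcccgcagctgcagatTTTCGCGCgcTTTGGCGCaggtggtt
E2F4: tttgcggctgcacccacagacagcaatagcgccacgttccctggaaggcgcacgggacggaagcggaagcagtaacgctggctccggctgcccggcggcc
E2F3: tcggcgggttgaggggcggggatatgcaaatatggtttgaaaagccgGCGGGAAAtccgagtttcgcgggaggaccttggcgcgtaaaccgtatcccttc

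E2F1 and RBL1 each hold a pair of matches and share TTTGGCGC, which also stands in E2F2. Counted from the start site, TTTGGCGC begins at -20 in E2F1, at -42 in E2F2 and at -16 in RBL1. The other match of E2F1 is TTTGCCGC on the opposite strand, with its leftmost base at -33, and that of RBL1 is TTTCGCGC at -26. No match overlapped another. E2F4 fell and its window holds no match to these letters. E2F3 did not fall and its window holds TTTCCCGC on the opposite strand, at -53. So the motif was present in 3 of the 4 members that fell and also in E2F3. E2F3 has a second window, for its other start, which is not shown.

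By GENCODE release 29 on GRCh38, E2F1 lies on chromosome 20 from 33675683 to 33686404 on the minus strand, and RBL1 on the same chromosome and strand from 36996349 to 37095995. E2F2 lies on chromosome 1 from 23506430 to 23531220 (minus), E2F3 on chromosome 6 from 20401906 to 20493715 (plus) and E2F4 on chromosome 16 from 67192169 to 67198918 (plus). E2F6 lies on chromosome 2 from 11444375 to 11466177, E2F7 on chromosome 12 from 77021247 to 77065580 and E2F8 on chromosome 11 from 19224063 to 19241620, all on the minus strand. RB1 lies on chromosome 13 from 48303726 to 48599436 (plus). Exons of other genes that overlap those of RBL1 or E2F8 had at most 2 counts in a library, and no exon of another gene overlaps those of RB1.

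E2F5 lies on chromosome 8 from 85177225 to 85217158 on the plus strand. It shares 969 exonic bases with C8orf59 on the opposite strand, which had 852 and 880 counts without and 734 and 675 counts with FOXD2, several times the counts of E2F5. The posterior SD of the E2F5 count was 0 in every library, so no reads of E2F5 were divided with another gene by estimate. The library kit keeps strand, but the strand setting of the counting is not given in the sources used here. Whether that setting matched the kit was not tested.

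The partners of these factors were then examined. Of 10 genes for dimer partners, p130 and the MuvB core with its later partners, 6 fell and 2 rose (median log2 fold change -0.24). That is 80% called, against 53.5% of all genes tested, in a list chosen with earlier results of these data known. TFDP1, the main DP partner, went from 265.4 and 271.4 to 217.9 and 204.2 CPM (-0.35, edgeR adjusted p = 1.6e-06). MYBL2 (-0.40) and FOXM1 (-0.30), which join MuvB to switch on late cell cycle genes, fell as well. In the MuvB core, LIN52 (-0.49), LIN9 (-0.37) and RBBP4 (-0.19) fell. The LIN9 call held in 11 of 17 alternatives (adjusted p up to 0.16) and was lost with DESeq2, limma on TPM and glmTreat, and without empty vector replicate 1 or FOXD2 replicate 2. The RBBP4 call held in 14 of 17 and was lost without empty vector replicate 2 (adjusted p = 0.083). LIN54 was at -0.08 and did not pass. LIN37, the subunit needed for repression by DREAM, rose from 6.94 and 5.37 to 10.4 and 9.70 CPM (0.71, edgeR adjusted p = 4.5e-04), as did RBL2.

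TFDP2, the other DP partner, gave different answers by counts and by TPM. It was at 50.6 and 51.9 CPM without and at 51.3 and 53.4 CPM with FOXD2 (0.03, edgeR adjusted p = 0.77). In TPM it went from 23.4 and 21.75 to 17.06 and 15.83, a TFDP2 log2 fold change of -0.45 on log2(TPM + 0.1) (limma adjusted p = 0.019). Its isoform-weighted length went from 2970 and 3177 bases to 4055 and 4623 bases, so the TPM of TFDP2 depends on which isoforms RSEM assigned.

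Genes upstream of the pocket proteins moved in both directions. Of 18 cyclins, kinases and inhibitors, 17 were tested, 6 rose and 8 fell (median -0.15). That is 82.4% called, against 53.5% of all genes tested, again in a list chosen with earlier results known. CCND1, which encodes the cyclin D1 that starts RB phosphorylation, went from 584.2 and 616.4 to 1395 and 1305 CPM (1.17). Of its kinase genes, CDK6 rose from 78.6 and 80.4 to 102.4 and 104.4 CPM (0.38), a call that did not hold with limma on TPM (adjusted p = 0.10), and CDK4 fell from 197.5 and 204.6 to 133.0 and 132.6 CPM (-0.60). CCND3 rose by 0.29, a call lost without empty vector replicate 1 (adjusted p = 0.15), and CCND2 had at most 2 counts in a library.

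The E and A cyclins act after cyclin D. CCNE1 fell (-0.35, lost without empty vector replicate 2, adjusted p = 0.13) and CCNA2 fell (-0.64), while CCNE2 (0.00) and the kinase gene CDK2 (-0.15, edgeR adjusted p = 0.056) did not pass. Without FOXD2 replicate 2, CDK2 passed as lower (-0.23, adjusted p = 0.0055). SKP2 (-0.61) and CKS1B (-0.44), which direct the destruction of the inhibitor p27, fell, and so did the p27 gene CDKN1B (-0.59). Other CDK inhibitors rose. CDKN1A, the gene of p21, went from 167.0 and 186.0 to 522.5 and 427.2 CPM (1.43, edgeR adjusted p = 1.5e-05), CDKN1C rose by 1.18 and CDKN2B by 1.28, the last from 5.51 and 4.31 to 11.6 and 12.2 CPM. CDKN2A, itself a gene repressed by RB, fell by 0.85 on the log2 scale, CDKN2D fell by 0.38 (edgeR adjusted p = 0.047) and CDKN2C was at 0.12 and did not pass. The CDKN2D call was lost in 13 of 17 alternatives, among them without empty vector replicate 1, empty vector replicate 2 or FOXD2 replicate 2 (adjusted p from 0.031 to 0.33 over all).

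Known targets of E2F fell almost throughout. Of 32 genes of the G1/S transition, 30 fell and 0 rose (median -0.53, edgeR), against 26.4% lower among all genes. At an unadjusted p under 0.05, 31 were lower and 0 higher, and DESeq2 called 27 lower and 0 higher. The uracil glycosylase UNG (129.5 and 134.3 to 74.6 and 65.7 CPM, -0.91), the repair gene BRCA1 (90.9 and 82.3 to 46.4 and 48.7 CPM, -0.87), the helicase subunit MCM2 (-0.82) and the licensing factor CDC6 (-0.73) fell most. CDC25A (-0.17) and EZH2 (-0.07) did not pass. In this list 17 of 28 genes with a promoter window (60.7%) held an E2F motif, against 3.99% of all genes. The list was made of known E2F targets, so a high share can follow from that choice. A link between the motif and the falls was not tested.

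Of 20 genes of G2 and mitosis that DREAM and MYBL2 with MuvB are known to bind, 19 fell and 0 rose (median -0.44, edgeR). That is 95% lower, against 26.4% of all genes tested. DESeq2 called 18 lower and 0 higher. At an unadjusted p under 0.05 the counts were again 19 and 0. CENPF (-0.73), PLK1 (-0.65), KIF11 (-0.63) and UBE2C (-0.56) fell most, and CDC25C (-0.21) did not pass. The CHR motif stood in 12 of 17 promoter windows (70.6%), against 18.2% of all genes. Here too the share can follow from the choice of the list, and a link to the falls was not tested. E2F7 and E2F8, which are known targets of the activators too, did not pass, and the difference between them and these lists was not tested. These lists were assembled with earlier results of these data known, so their direction is not independent evidence.

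**Figure D4:**
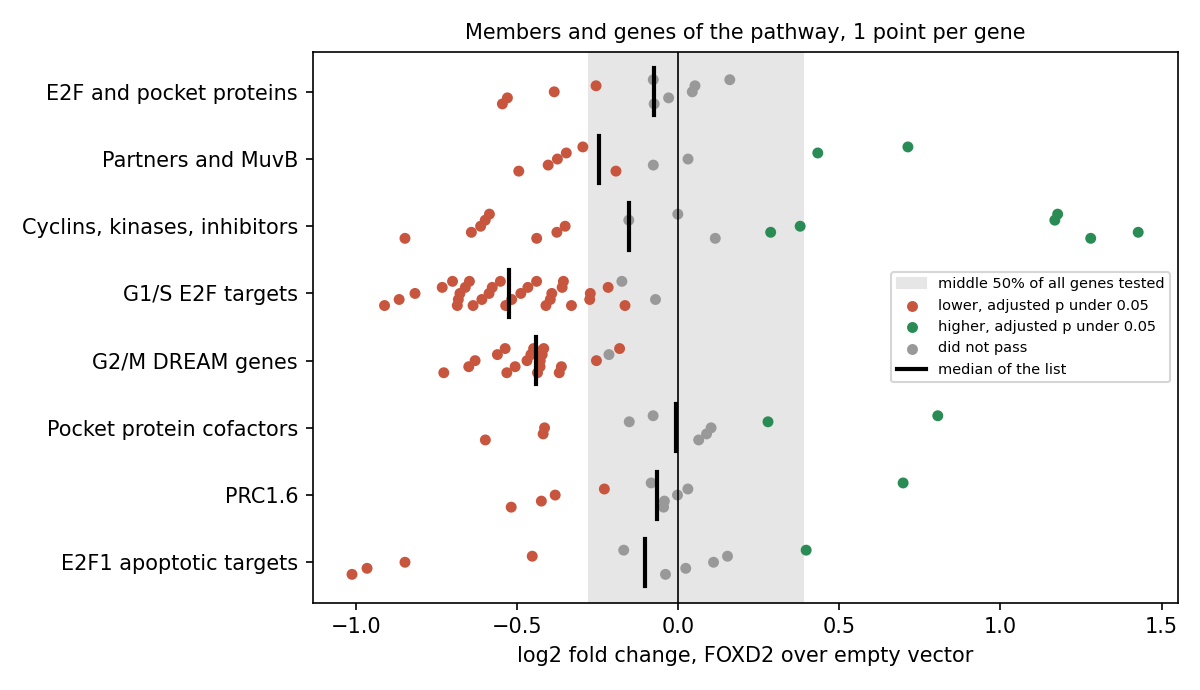
Fitted log2 fold change, FOXD2 over empty vector, of the 10 members and of the genes of 7 related lists, 1 point per tested gene; the black bar is the list's median and the grey band the middle 50% of all genes tested. The G1/S and G2/M lists lie wholly below 0 (medians -0.53 and -0.44), while the members (median -0.08) and the upstream regulators are spread over both sides.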

How the data were processed

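Gene tables were deposited by the authors, 1 per library, with an RSEM expected count for every gene. RSEM divides reads that fit several genes by estimate. They also give, per the file headers, TPM with a posterior mean and interval whose level the file does not state, FPKM (not tested here), and isoform-weighted lengths. STAR 2.7.2b, RSEM 1.2.31 and GRCh38 are named in the submitters' processing notes; the annotation release and strand setting are not given in the sources used here.

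Symbols were matched for 60370 of 60683 identifiers. Expected counts were rounded (5.04% of values were not whole) and tested with edgeR 4.0.16 in R 4.3.3 (TMM, filterByExpr, robust quasi-likelihood fit, intercept and group), with p-values adjusted by Benjamini-Hochberg over all 14470 genes kept, at 0.05. CPM values use TMM-scaled library sizes. Fold changes (FOXD2 over empty vector) are fitted log2 values; SE and 95% intervals come from the same fit. Alternatives used DESeq2 1.42.0 and limma 3.58.1. No molecular identifiers are named, so counts of reads are not counts of independent molecules, and intervals of single levels cover counting error only. Simulated data for this comparison over 14470 genes held 200 changed genes per simulation. Of these, 22% were recovered at a 1.2-fold change, 63% at 1.5-fold and 87% at 2-fold. False calls numbered 15, 31 and 24, a larger part of all calls than the threshold of 0.05 implies. In the data themselves 53.5% of the 14470 genes passed, far more than were changed in the simulations. Recovery and the part of false calls depend on how many genes change, so these values need not hold for the data. Chi-square per degree of freedom came to 2.59 for the empty vector pair and 4.09 for the FOXD2 pair, so neither pair agreed within sampling noise.

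The members, the 8 gene lists, the tests and the alternatives were chosen with earlier results of these data known. Named genes are the 10 members, FOXD2, every gene of the lists of partners, upstream regulators and PRC1.6, and from each other list the 4 called genes with the largest change, up to 3 called the other way, and the genes not called where these were 3 or fewer. A gene that this rule names is not reported here. Protein sequences were not used here.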

Additional observations from a re-analysis of the deposited data

How the results depend on the processing

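Of 17 alternatives, all kept E2F1, E2F2 and E2F4 lower, with log2 fold changes of -0.58 to -0.48, -0.60 to -0.45 and -0.43 to -0.26. RBL1 stayed negative but did not pass with DESeq2 (-0.26, adjusted p = 0.10), limma on log2(TPM + 0.1) (-0.30) or log2(TPM + 1) (-0.27), library size only (-0.19) or glmTreat against a 1.2-fold change (-0.25). E2F3 passed as higher with library size only (0.23) and upper-quartile factors (0.20), which made 1 member higher under each. The RB1 log2 fold change turned to 0.036 and 0.0091 under these settings and was not called. With 1 library left out, taking the remaining sample to be as variable as the other group's, ranges were -0.25 to 0.073 for E2F5, -0.020 to 0.13 for E2F6, -0.20 to 0.034 for E2F7, -0.014 to 0.11 for E2F8 and -0.34 to -0.18 for RBL1, with 3 to 4 members lower, 3214 to 3605 genes higher and 3017 to 3612 lower. The same range was 1 to 2 for cofactors higher, 0 to 1 for germline genes higher and 0 to 2 for apoptotic genes higher.

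The numbers of all genes higher and lower were 2551 and 1916 with glmTreat, and limma placed 2252 (TPM + 0.1) and 2303 (TPM + 1) genes lower. With glmTreat 2 partner and MuvB genes were lower, 1 cofactor was higher and 0 germline and 0 apoptotic genes were higher. Limma on TPM placed 1 cofactor higher under both pseudocounts. The germline count was 0 with DESeq2, limma on TPM under both pseudocounts, no filter and the 1 CPM filter, and the apoptotic count was 0 with DESeq2. By counts in place of TPM, mean E2F shares without and with FOXD2 were 10.3% and 8.10% for E2F1, 10.7% and 8.54% for E2F2, 14.5% and 18.6% for E2F3, 33.5% and 29.4% for E2F4, 2.98% and 3.25% for E2F5, 8.78% and 10.5% for E2F6, 10.3% and 11.2% for E2F7 and 8.83% and 10.4% for E2F8. Counts are not scaled by length, which by construction raises the longer transcripts.

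Genes near 0 that were not called changed sign. With limma on log2(TPM + 0.1) and log2(TPM + 1) these were TFDP2 (-0.45 and -0.43, both called), LIN54 (0.015 and 0.014), CCNE2 (0.087 and 0.082), MGA (0.078 and 0.070) and MAX (0.068 and 0.067), and the EZH2 log2 fold change was 0.0042 and 0.0041. With library size only they were CCNE2 (0.064) and YAF2 (0.064), the L3MBTL2 log2 fold change was 0.020 and the MAX log2 fold change was 0.023. The others were, with upper-quartile factors CCNE2 (0.038) and YAF2 (0.037), and with the 1 CPM filter CCNE2 (0.0019) and YAF2 (0.0010). Without 1 library the ranges were -0.056 to 0.048 for CCNE2, -0.14 to 0.0071 for EZH2, -0.18 to 0.11 for L3MBTL2, -0.092 to 0.011 for MAX, -0.023 to 0.084 for RYBP and -0.21 to 0.18 for YAF2.

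With the replicate block 4 members were lower, and the E2F1 log2 fold change was -0.54 (adjusted p = 6.8e-07); the calls of CDKN2D (adjusted p = 0.066) and RNF2 (0.056) were lost, and the counts lower went from 30 to 29 for G1/S targets and from 19 to 18 for G2/M genes. The labels do not say that same-numbered libraries are paired, and the correlation of their deviations across 14470 genes was -0.099. Except where stated, the cause of a change under an alternative was not tested. E2F5 had the fewest counts of the members, 161 to 213 per library.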

Other observations

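Cofactors that pocket proteins recruit to silence genes went both ways. Of 10, 3 fell and 2 rose (median log2 fold change -0.01). That is 50% called, against 53.5% of all genes tested, so the share was not above that of genes in general. The deacetylase genes HDAC1 (266.8 and 266.7 to 182.0 and 170.4 CPM, -0.60) and HDAC2 (-0.42) and the scaffold SIN3A (-0.41) fell by edgeR. SIN3B, the scaffold that binds DREAM in resting cells, rose from 54.7 and 51.7 to 63.8 and 65.3 CPM (0.28), and the chromatin remodeller SMARCA2 rose from 18.3 and 19.9 to 33.5 and 33.3 CPM (0.81). The SIN3B call was lost without empty vector replicate 2, which left SMARCA2 as the 1 higher gene. The adjusted p of SIN3B ran from 0.00045 to 0.39 over the alternatives.

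Of 10 subunits of PRC1.6, the Polycomb complex that E2F6 guides to DNA, 4 fell and 1 rose (50% called, against 53.5% of all genes tested). PCGF6, the subunit that defines the complex, went from 33.8 and 41.7 to 28.0 and 24.8 CPM (-0.52), and CBX3 (-0.42), WDR5 (-0.38) and RNF2 (-0.23) fell. The ubiquitin ligase RING1 rose from 50.1 and 43.6 to 77.5 and 74.4 CPM (0.70). The RNF2 call was lost in 10 of 17 alternatives, among them without empty vector replicate 1, empty vector replicate 2 or FOXD2 replicate 2 (adjusted p from 0.027 to 0.73). The values of MGA (-0.08), L3MBTL2 (-0.04), MAX (-0.04), YAF2 (0.00) and RYBP (0.03) did not pass. Of 10 germline genes that E2F6 is known to keep silent, 9 had at most 6 counts in any library and were not tested. STAG3 was at 0.572 and 0.464 CPM without and at 1.48 and 0.957 CPM with FOXD2 (log2 fold change 1.23, SE 0.48, edgeR adjusted p = 0.027). STAG3 had 8 and 7 counts without and 23 and 14 counts with FOXD2. It passed the filter on low counts only through the FOXD2 libraries, so its direction is not independent of the filter. Its call was lost in 8 of 16 alternatives (adjusted p from 0.022 to 0.27), among them without empty vector replicate 1, empty vector replicate 2 or FOXD2 replicate 1.

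Of 10 apoptotic genes that E2F1 can induce, 4 fell and 1 rose, again 50% called against 53.5% of all genes tested. APAF1, the core of the apoptosome, went from 28.5 and 25.4 to 12.7 and 14.01 CPM (-1.01). PMAIP1 went from 49.5 and 48.8 to 24.3 and 26.0 CPM (-0.96), and CDKN2A (-0.85) fell as well. CDKN2A is in both this list and that of the CDK inhibitors, so its fall is counted in each. Counts per gene do not separate its transcripts. BBC3 rose from 12.8 and 13.2 to 17.02 and 17.2 CPM (0.40, edgeR adjusted p = 0.0077), and this call was lost with DESeq2, with glmTreat and without empty vector replicate 1 (adjusted p from 0.0029 to 0.14 over the alternatives).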
